A study of Mus musculus with 12 samples.

Results

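Cdx2, Gata2, Gata3, Hand1, Ascl2, Tfap2c, Tead4 and Fgfr2, a set of 8 regulators of the trophoblast lineage, were followed in mouse embryonic stem cells without DHX36, without FANCJ or without both of these helicases, which unwind G-quadruplexes. The genes were taken from the count table by symbol. All 8 were found among its 32285 genes, and all 8 were among the 12765 genes that passed the expression filter. Transcript levels came from bulk RNA sequencing of the ends of polyadenylated transcripts, by a protocol like CEL-Seq2, in 12 libraries. The genotypes were the DHX36/FANCJ knockout (KO), the DHX36 KO, the FANCJ KO and wild type (WT), with 3 libraries each. Every genotype was made in IB10 cells, a 129/Ola-derived line, and was kept without treatment on gelatin in medium conditioned by Buffalo rat liver cells, with serum and leukaemia inhibitory factor. The question the design poses is how loss of either helicase, alone or with the other, altered transcript levels. The sources used here do not give whether a knockout genotype was 1 clone or several, and differences between clones and between genotypes cannot be told apart. Nor do the labels say that the 3 libraries came from separate cultures, and the p-values reflect only their spread, which may be technical.

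The trophoblast forms from the outer cells of the preimplantation embryo and builds the fetal part of the placenta, while embryonic stem cells stand for the inner cells that give rise to the embryo proper. In outer cells the DNA-binding factor TEAD4, with its coactivator YAP, drives Cdx2 and Gata3, and CDX2 in turn opposes the pluripotency factor OCT4. Trophoblast stem cells then depend on FGF4 made by the neighbouring inner cells, which they sense through FGFR2. Several of these regulators also work elsewhere: HAND1 in mesoderm, GATA2 in blood, and TFAP2C in germ cells and naive pluripotent cells.

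Of the 8 genes, 5 had a promoter sequence in the RefSeq-derived table used here (Cdx2, Gata2, Gata3, Ascl2 and Fgfr2, in 6 windows of 300 bases on GRCm38.p6, running from 250 bases before to 50 after a transcription start). Because the deleted proteins unwind G-quadruplexes, the windows were searched on both strands for the sequence pattern of such a structure, 4 runs of at least 3 G with loops of 1 to 7 bases. Only the Gata3 and Ascl2 windows held it among these 6, against 18.6% of the 32851 promoter windows in the table. They are printed with the Cdx2 window, which belongs to the gene with the largest fold difference between genotypes, each 5′ to 3′ along the gene's strand with the bases inside a match in capitals.
Gata3 (chr2:9878551-9878850, minus strand): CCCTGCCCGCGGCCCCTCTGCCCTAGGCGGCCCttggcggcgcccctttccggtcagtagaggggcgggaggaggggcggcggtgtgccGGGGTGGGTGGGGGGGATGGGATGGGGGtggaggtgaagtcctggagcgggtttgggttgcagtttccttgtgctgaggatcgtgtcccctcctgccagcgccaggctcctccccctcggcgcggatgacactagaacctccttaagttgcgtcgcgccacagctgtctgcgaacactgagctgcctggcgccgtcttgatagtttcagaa
Ascl2 (chr7:142969215-142969514, minus strand): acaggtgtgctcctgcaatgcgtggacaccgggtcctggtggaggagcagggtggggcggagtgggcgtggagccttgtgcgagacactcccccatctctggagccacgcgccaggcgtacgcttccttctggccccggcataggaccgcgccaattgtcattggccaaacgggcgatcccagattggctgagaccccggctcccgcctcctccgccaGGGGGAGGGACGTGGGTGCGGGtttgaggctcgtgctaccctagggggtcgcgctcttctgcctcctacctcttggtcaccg
Cdx2 (chr5:147307200-147307499, minus strand): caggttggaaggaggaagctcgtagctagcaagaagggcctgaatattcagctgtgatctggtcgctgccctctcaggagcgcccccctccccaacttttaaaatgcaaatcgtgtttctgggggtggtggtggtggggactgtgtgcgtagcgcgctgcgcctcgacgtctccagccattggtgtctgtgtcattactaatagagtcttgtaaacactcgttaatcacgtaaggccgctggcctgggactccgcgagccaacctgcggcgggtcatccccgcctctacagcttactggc
In Ascl2 the match was 22 bases long, on the strand of the gene, and ended 11 bases before the start. In Gata3 a match of 28 bases lay on the strand of the gene. A stretch of 33 bases, written here as runs of C, joined overlapping matches on the opposite strand. These matches describe the letters only. No measurement here shows a structure at them.

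Total counts ranged from 10915924 to 14721931 in the DHX36/FANCJ KO, 6223087 to 10919405 in the DHX36 KO, 4936662 to 7900066 in the FANCJ KO and 4284785 to 5792862 in WT, so each library of the DHX36/FANCJ KO was deeper than each WT library. Levels are given as CPM, counts scaled to a common library size with trimmed-mean factors. The targeted genes were low where labelled. Against WT, Dhx36 had a log2 fold change of -1.97 (SE 0.12) in the DHX36/FANCJ KO and fell by 2.35 (SE 0.13) in the DHX36 KO. Brip1, which encodes FANCJ, fell by 3.93 (SE 0.36) in the DHX36/FANCJ KO and by 4.45 (SE 0.45) in the FANCJ KO. Every library carried an embryonic stem cell profile: all 10 markers listed for that cell type were tested, and their summed level was 6370 to 6470 CPM in the DHX36/FANCJ KO, 5230 to 5470 in the DHX36 KO, 4210 to 4480 in the FANCJ KO and 4720 to 4860 in WT. Of the trophoblast markers, Tpbpa and Prl3d1, which mark spongiotrophoblast and giant cells, had 0 counts in all 12 libraries. A count of 0 allows a level of up to 3 counts, or 0.204 to 0.7 CPM depending on the library, for counting error only. Elf5, a factor that keeps trophoblast stem cells self-renewing, had 4, 0 and 0 counts in the DHX36/FANCJ KO, 2, 1 and 2 in the DHX36 KO, 0, 1 and 0 in the FANCJ KO and 0 in each WT library. The other 6 markers of that list of 9 were tested and present, and 3 of them (Cdx2, Gata3 and Tfap2c) are among the 8 regulators. Eomes averaged 29.4 CPM in the DHX36/FANCJ KO and 19.9 CPM in WT.

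**Figure D1:**
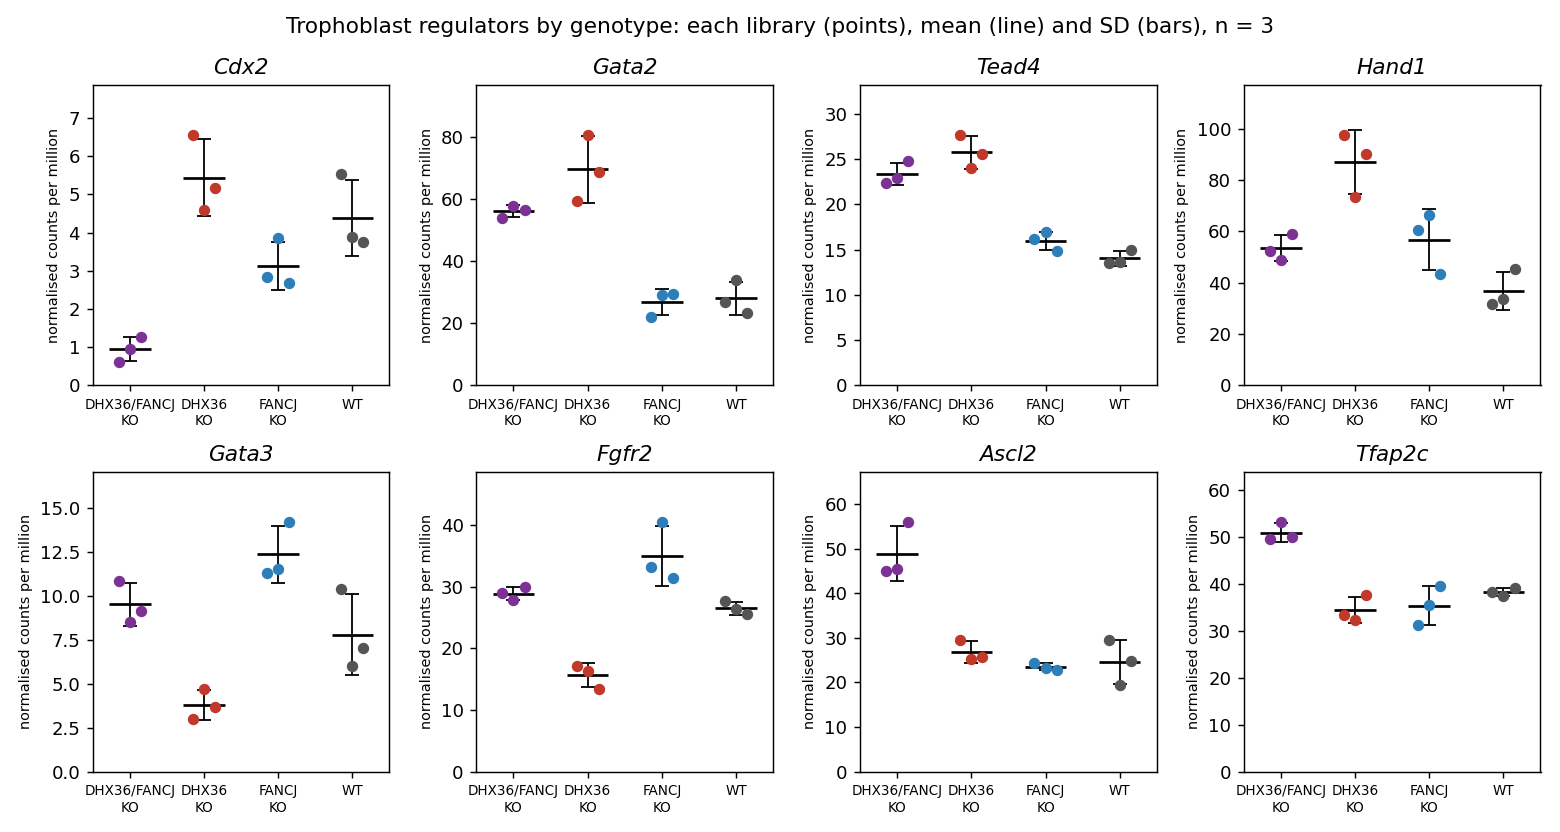
Level of each of the 8 trophoblast regulators in CPM on a linear axis, by genotype, with 3 libraries as points and their mean and SD as a line and bars. Cdx2 was lowest and Ascl2 and Tfap2c highest in the DHX36/FANCJ KO, Gata2 and Tead4 were higher in both genotypes without DHX36, and Gata3 and Fgfr2 were lowest in the DHX36 KO.

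Without DHX36, with or without FANCJ, Gata2 and Tead4 were higher than in WT. Gata2 (ENSMUSG00000015053, GRCm38 chromosome 6, 88193891 to 88207032, plus strand), a zinc finger factor of trophoblast giant cells and blood progenitors, had 53.9, 57.7 and 56.5 CPM in the DHX36/FANCJ KO, 59.3, 80.5 and 68.5 in the DHX36 KO, 22.04, 28.9 and 29.3 in the FANCJ KO and 26.8, 33.8 and 23.2 in WT. The 6 libraries without DHX36 all lay above the 6 with it. In bulk libraries a change in the share of expressing cells and a change in RNA per cell cannot be told apart. Its log2 fold change against WT was 0.99 (SE 0.14) in the DHX36/FANCJ KO and 1.30 (SE 0.14) in the DHX36 KO (adjusted p = 9.71e-06 and 6.26e-07, edgeR's quasi-likelihood test with Benjamini-Hochberg adjustment over all genes tested, used throughout). In the FANCJ KO the value was -0.08 (SE 0.15, adjusted p = 0.856). The DHX36/FANCJ KO lay below the DHX36 KO in every library, by -0.31 (SE 0.12), but this did not pass (adjusted p = 0.0871). It did so without DHX36 KO library 1 (adjusted p = 0.0384) or with only these genotypes in the fit (adjusted p = 0.049).

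Tead4 (ENSMUSG00000030353, chromosome 6, 128224288 to 128300823, minus strand) had 22.4, 23.0 and 24.8 CPM in the DHX36/FANCJ KO, 27.7, 24 and 25.6 in the DHX36 KO, 16.1, 16.9 and 14.9 in the FANCJ KO and 13.5, 13.6 and 14.99 in WT. As for Gata2, the libraries without DHX36 did not overlap those with it. Tead4 rose by 0.74 (SE 0.13) in the DHX36/FANCJ KO and by 0.88 (SE 0.13) in the DHX36 KO (adjusted p = 9.96e-05 and 2.58e-05, edgeR). The difference between these genotypes was -0.15 (SE 0.11, adjusted p = 0.384), and that between the FANCJ KO and WT 0.20 (SE 0.14, adjusted p = 0.544). Neither gene passed the test of the interaction, which asks whether loss of FANCJ had another effect in cells without DHX36 than in cells with it (Gata2 -0.22, SE 0.19, adjusted p = 0.556, and Tead4 -0.34, SE 0.17, adjusted p = 0.256).

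Gata3 and Fgfr2 went the other way in the DHX36 KO, where both fell, and neither differed from WT past the threshold in the DHX36/FANCJ KO. Gata3 (ENSMUSG00000015619, chromosome 2, 9857078 to 9890034, minus strand), a target of TEAD4 in the trophectoderm, had 161, 107 and 103 counts in the DHX36/FANCJ KO, 27, 30 and 40 in the DHX36 KO, 88, 87 and 69 in the FANCJ KO and 47, 34 and 30 in WT. In CPM these were 10.9, 8.53 and 9.17 in the DHX36/FANCJ KO, 3.00, 4.74 and 3.70 in the DHX36 KO, 11.3, 11.6 and 14.2 in the FANCJ KO and 10.4, 6.01 and 7.03 in WT. The DHX36 KO libraries lay below those of every other genotype. Against WT, Gata3 fell by 1.05 (SE 0.24) in the DHX36 KO (adjusted p = 0.003), and its value was 0.31 (SE 0.21, adjusted p = 0.269) in the DHX36/FANCJ KO. The FANCJ KO lay above WT in every library, at 0.66 (SE 0.21), without passing (adjusted p = 0.122). In the DHX36/FANCJ KO it was higher than in the DHX36 KO by 1.35 (SE 0.21, adjusted p = 7.27e-05, edgeR).

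Fgfr2 (ENSMUSG00000030849, chromosome 7, minus strand), the receptor for FGF4, had 28.9, 27.8 and 29.9 CPM in the DHX36/FANCJ KO, 17.2, 16.4 and 13.5 in the DHX36 KO, 33.1, 40.5 and 31.4 in the FANCJ KO and 27.7, 26.3 and 25.5 in WT. Again the DHX36 KO was below all other libraries, and no pair of genotypes overlapped. It fell by 0.76 (SE 0.14) in the DHX36 KO (adjusted p = 2.38e-04, edgeR). Its value was 0.12 (SE 0.12, adjusted p = 0.474) in the DHX36/FANCJ KO and 0.41 (SE 0.13, adjusted p = 0.111) in the FANCJ KO. The DHX36/FANCJ KO was higher than the DHX36 KO by 0.89 (SE 0.12, adjusted p = 2.15e-05) and stood at -0.28 (SE 0.12, adjusted p = 0.0607) against the FANCJ KO, a comparison that passed without FANCJ KO library 3 (adjusted p = 0.0376). For neither gene did the interaction pass (Gata3 0.69, SE 0.30, adjusted p = 0.175, and Fgfr2 0.48, SE 0.18, adjusted p = 0.102), although that of Fgfr2 did without FANCJ KO library 2 (0.61, adjusted p = 0.0396). In GENCODE M21 Fgfr2 runs from 130162451 to 133123350, because 1 of its 27 transcripts reaches far past the RefSeq gene (130162451 to 130266808). That span takes in 69 other annotated genes, while 0 lie within the RefSeq span. The sources used here do not say how reads in such overlaps were counted.

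Cdx2 was lower, and Ascl2 and Tfap2c higher, in the DHX36/FANCJ KO than in each of the other 3 genotypes, and none of these genes passed in the DHX36 KO or the FANCJ KO against WT. Cdx2 (ENSMUSG00000029646, chromosome 5, 147300805 to 147307270, minus strand), a homeobox factor required for trophectoderm, was scarce throughout, with 9, 12 and 14 counts in the DHX36/FANCJ KO, 59, 29 and 56 in the DHX36 KO, 22, 29 and 13 in the FANCJ KO and 25, 22 and 16 in WT. In CPM these were 0.609, 0.957 and 1.25 in the DHX36/FANCJ KO, 6.56, 4.58 and 5.18 in the DHX36 KO, 2.84, 3.86 and 2.68 in the FANCJ KO and 5.54, 3.89 and 3.75 in WT. Each DHX36/FANCJ KO library held fewer Cdx2 counts than any WT library, at more than the depth of any of them, and in CPM none overlapped with another genotype. Cdx2 fell in the DHX36/FANCJ KO by 2.24 (SE 0.34, 4.72-fold) against WT, by 2.56 (SE 0.30) against the DHX36 KO and by 1.77 (SE 0.34) against the FANCJ KO (adjusted p = 2.21e-05, 2.68e-06 and 2.54e-04, edgeR). Against WT it stood at 0.32 (SE 0.28, adjusted p = 0.432) in the DHX36 KO and -0.47 (SE 0.31, adjusted p = 0.515) in the FANCJ KO.

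The interaction for Cdx2 was -2.09 (SE 0.43, adjusted p = 0.00304, edgeR). All libraries were also reduced once, at random, to an equal depth, that of the shallowest. The fall of Cdx2 against WT was then 1.75 (adjusted p = 0.00483), but the difference from the FANCJ KO (-0.80, adjusted p = 0.243) and the interaction (-1.14, adjusted p = 0.329) no longer passed. In that draw the gene had 6, 7 and 4 counts in the DHX36/FANCJ KO, against 8, 8 and 13 in the FANCJ KO. With so few counts the draw itself moves these values, and no other draw was made. Cdx2 was also higher in the DHX36 KO than in the FANCJ KO (0.79, SE 0.28, adjusted p = 0.0345). That call was lost with DESeq2 (adjusted p = 0.0798) and without DHX36 KO library 1 or 3 or FANCJ KO library 1 or 3 (adjusted p = 0.151, 0.0587, 0.127 and 0.0941).

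Ascl2 (ENSMUSG00000009248, chromosome 7, 142966829 to 142969264, minus strand), a basic helix-loop-helix factor of the spongiotrophoblast that is expressed from the maternal allele in placenta, had 45.1, 45.5 and 56.0 CPM in the DHX36/FANCJ KO, 29.6, 25.3 and 25.6 in the DHX36 KO, 24.4, 23.3 and 22.9 in the FANCJ KO and 29.4, 19.4 and 24.8 in WT. Every DHX36/FANCJ KO library was above all 9 others. The rise was 1.00 (SE 0.13, 2.00-fold) against WT, 0.86 (SE 0.12) against the DHX36 KO and 1.05 (SE 0.13) against the FANCJ KO (adjusted p = 5.91e-06, 3.65e-05 and 1.55e-06, edgeR). Against WT it did not pass in either of the other knockouts, at 0.14 (SE 0.14, adjusted p = 0.519) in the DHX36 KO and -0.05 (SE 0.15, adjusted p = 0.921) in the FANCJ KO. The interaction was 0.91 (SE 0.19, adjusted p = 0.00378).

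Tfap2c (ENSMUSG00000028640, chromosome 2, 172549593 to 172558622, plus strand), an AP-2 factor required for trophoblast stem cells, had 49.5, 53.2 and 49.9 CPM in the DHX36/FANCJ KO, 33.3, 32.2 and 37.5 in the DHX36 KO, 31.2, 35.4 and 39.4 in the FANCJ KO and 38.3, 37.5 and 39.1 in WT. All DHX36/FANCJ KO libraries again lay above the rest. It was 0.41 (SE 0.10) against WT, 0.56 (SE 0.10) against the DHX36 KO and 0.53 (SE 0.10) against the FANCJ KO (adjusted p = 0.00454, 3.71e-04 and 3.12e-04, edgeR). The values of the DHX36 KO (-0.15, SE 0.11, adjusted p = 0.351) and FANCJ KO (-0.12, SE 0.11, adjusted p = 0.657) against WT did not pass. The interaction was 0.68 (SE 0.15, adjusted p = 0.00494), and at equal depth it was 0.61 (adjusted p = 0.0871).

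Hand1 (ENSMUSG00000037335, chromosome 11, 57828705 to 57832818, minus strand), which directs trophoblast giant cell formation and also acts in mesoderm, was the gene of the set that rose in all 3 knockout genotypes. It had 52.5, 49.0 and 59.0 CPM in the DHX36/FANCJ KO, 97.6, 73.4 and 90.1 in the DHX36 KO, 60.3, 66.5 and 43.5 in the FANCJ KO and 31.4, 33.8 and 45.2 in WT. The DHX36 KO was above every other library, and the lowest FANCJ KO library lay below the highest WT library. Hand1 rose by 0.55 (SE 0.15) in the DHX36/FANCJ KO, 1.25 (SE 0.15) in the DHX36 KO and 0.64 (SE 0.15) in the FANCJ KO (adjusted p = 0.00783, 2.44e-06 and 0.031, edgeR). The call in the FANCJ KO was lost with the other genotypes left out of the fit (adjusted p = 0.0572), and without WT library 1 or 2 or FANCJ KO library 1 or 2 (adjusted p = 0.138, 0.131, 0.116 and 0.136). The rises did not add up: the interaction was -1.35 (SE 0.21, adjusted p = 1.72e-04). In the DHX36/FANCJ KO Hand1 was lower than in the DHX36 KO by -0.71 (SE 0.14, adjusted p = 7.02e-04) and stood at -0.10 (SE 0.14, adjusted p = 0.613) against the FANCJ KO.

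**Figure D2:**
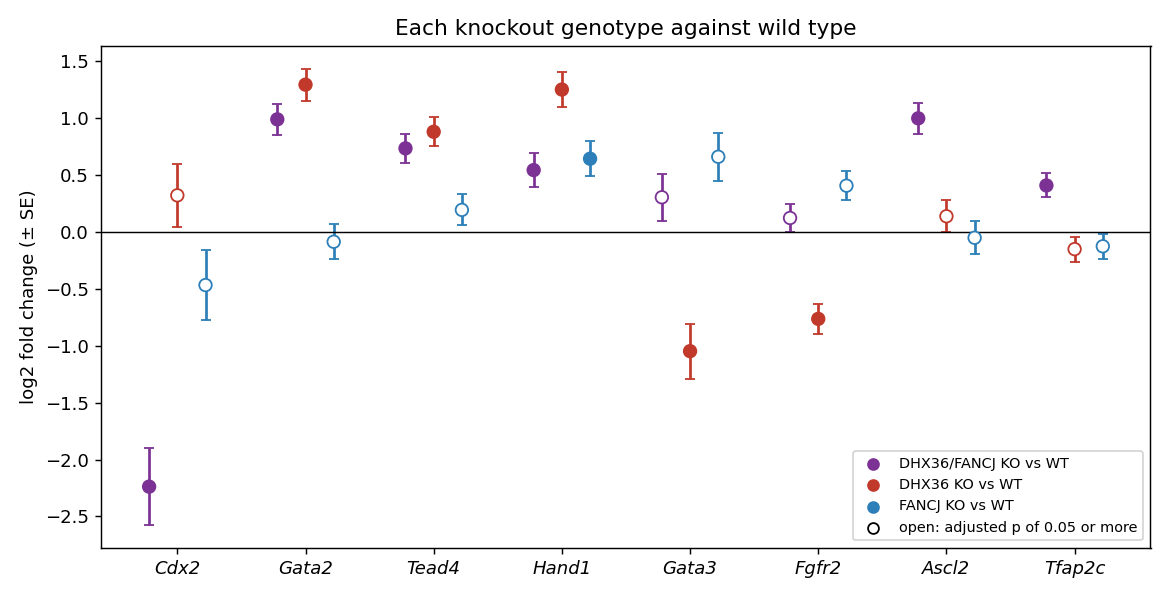
Log2 fold change of each regulator against WT, with its standard error, in the DHX36/FANCJ KO, the DHX36 KO and the FANCJ KO. Filled points passed an adjusted p of 0.05 (edgeR), as 6 genes did in the DHX36/FANCJ KO, 5 in the DHX36 KO and Hand1 alone in the FANCJ KO.

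By comparison, 6 of the 8 regulators changed in the DHX36/FANCJ KO against WT, 5 up and 1 down, where 33.9% of all tested genes changed. In the DHX36 KO 5 changed, 3 up and 2 down, against 24.4% of all genes. In the FANCJ KO 1 rose and 0 fell, against 2.07% of all genes. The median log2 fold change of the 8 was 0.48 in the DHX36/FANCJ KO, 0.23 in the DHX36 KO and 0.07 in the FANCJ KO, with medians over all tested genes of 0.01, 0.01 and -0.00. The 3 comparisons share their WT libraries. In the DHX36/FANCJ KO and in the DHX36 KO, genes of the set thus moved in both directions.

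The knockouts were also set against each other. Loss of FANCJ in cells already lacking DHX36 changed 6 of the 8, with Gata3, Fgfr2, Ascl2 and Tfap2c up and Cdx2 and Hand1 down, where 19.7% of all genes changed. Loss of DHX36 in cells lacking FANCJ changed 5, with Gata2, Tead4, Ascl2 and Tfap2c up and Cdx2 down, where 36.8% of all genes did. In that comparison Gata2 rose by 1.08 (SE 0.13) and Tead4 by 0.54 (SE 0.12), with adjusted p = 1.84e-06 and 9.66e-04 (edgeR). Set directly against the FANCJ KO, the DHX36 KO differed in 6 regulators, against 30.2% of all genes. Gata2 (1.38), Tead4 (0.69), Hand1 (0.61) and Cdx2 were higher and Gata3 (-1.71) and Fgfr2 (-1.17) lower, the adjusted p-values lying between 1.06e-07 for Gata2 and 0.0345 for Cdx2. The interaction passed for 4 regulators, Ascl2 and Tfap2c upward and Cdx2 and Hand1 downward, where it passed for 8.79% of all genes.

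**Figure D3:**
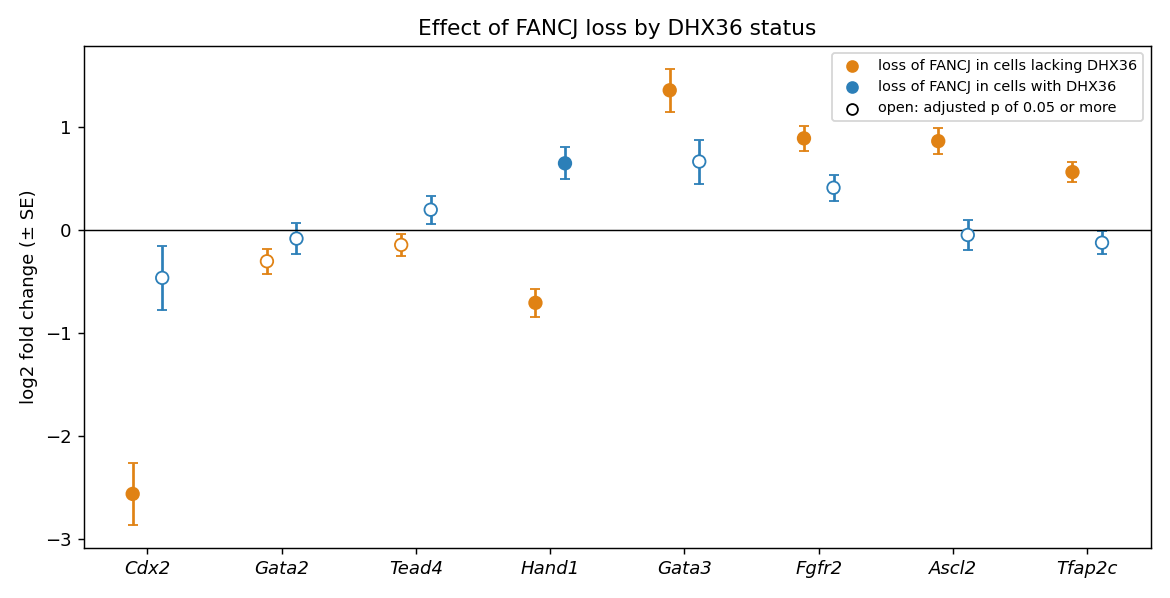
Log2 fold change with FANCJ loss, with its standard error, in cells lacking DHX36 (DHX36/FANCJ KO against DHX36 KO) and in cells with DHX36 (FANCJ KO against WT). Hand1 passed in both, at -0.71 in cells lacking DHX36 and 0.64 in cells with it. Filled points passed an adjusted p of 0.05.

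Among 22 further trophoblast regulators, 20 were tested. In the DHX36/FANCJ KO 6 rose and 6 fell (median 0.14), in the DHX36 KO 3 rose and 6 fell (0.06) and in the FANCJ KO 1 rose and 0 fell (0.08). Of all tested genes 33.9%, 24.4% and 2.07% changed in these comparisons. Bmp4, a signal used to turn human embryonic stem cells towards trophoblast, averaged 129 ± 11.8 CPM in the DHX36/FANCJ KO, 168 ± 6.995 in the DHX36 KO, 76.5 ± 7.47 in the FANCJ KO and 70.9 ± 4.46 in WT (SD, n = 3 each), and rose by 1.24 (SE 0.10) in the DHX36 KO. Eomes, a T-box factor of trophoblast stem cells and of mesendoderm, rose by 0.82 (SE 0.12) in the DHX36 KO. The Ets factor Elf3 rose by 1.21 (SE 0.09) in the DHX36/FANCJ KO. In the FANCJ KO it was at 0.43 (adjusted p = 0.0185), a call lost without WT library 2 or FANCJ KO library 2 or 3 (adjusted p = 0.0962, 0.0675 and 0.0767). Among the falls were those of Id2, an inhibitor of basic helix-loop-helix factors (-1.08 in the DHX36/FANCJ KO and -0.94 in the DHX36 KO), the epithelial factor Grhl2 (-1.15 in the DHX36/FANCJ KO) and Tfap2a, the AP-2 paralogue of Tfap2c (-1.27 in the DHX36/FANCJ KO). Tfap2a was at -1.17 in the DHX36 KO (adjusted p = 0.0159), where its libraries overlapped with WT. That call was lost at equal depth (adjusted p = 0.11) and without WT library 2 or 3 or DHX36 KO library 3 (adjusted p = 0.0739, 0.0638 and 0.096).

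Of 34 listed products of the differentiating trophoblast, 21 were tested, and 7 rose and 8 fell in the DHX36/FANCJ KO (median -0.16), 3 rose and 9 fell in the DHX36 KO (-0.42) and 2 rose and 0 fell in the FANCJ KO (0.24). The shares of all genes that changed were 33.9%, 24.4% and 2.07%. The keratins of simple epithelia gave the largest falls in the DHX36/FANCJ KO, where Krt8 stood at -1.90 (SE 0.10), Krt7 at -1.79 (SE 0.14) and Krt18 at -1.77 (SE 0.11). In the DHX36 KO Krt7 stood at -1.79 (SE 0.14). Krt8 averaged 155 ± 7.03 CPM in the DHX36/FANCJ KO, 275 ± 26.2 in the DHX36 KO, 637 ± 29.1 in the FANCJ KO and 580 ± 89.8 in WT (SD, n = 3 each). Aqp3, a water and glycerol channel, rose by 2.15 (SE 0.17) in the DHX36/FANCJ KO and 1.58 (SE 0.18) in the DHX36 KO, and the cell cycle inhibitor Cdkn1c rose by 1.09 (SE 0.22) in the DHX36 KO. The prostaglandin transporter Slco2a1 fell by 1.23 (SE 0.33) there, a call lost without WT library 2 (adjusted p = 0.0536) and at equal depth (-0.69, adjusted p = 0.415). In the FANCJ KO the endocytic adaptor Dab2 rose by 0.83 (SE 0.14). Krt7 was at 0.54 (adjusted p = 0.0284) there, a call lost without any WT library (adjusted p = 0.0916, 0.103 and 0.0536) and without FANCJ KO library 1 or 2 (adjusted p = 0.115 and 0.0992).

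Of 17 tested TEAD partners and Hippo pathway genes, 3 rose and 8 fell in the DHX36/FANCJ KO, 2 rose and 7 fell in the DHX36 KO and 0 rose and 1 fell in the FANCJ KO, with medians of -0.33, -0.40 and 0.11, where 33.9%, 24.4% and 2.07% of all genes changed. Yap1, the coactivator of TEAD4, rose by 0.55 (SE 0.14, adjusted p = 0.00313, edgeR) in the DHX36/FANCJ KO and by 0.42 (SE 0.14, adjusted p = 0.0267) in the DHX36 KO, where its libraries overlapped with WT. The YAP target Ccn2 rose by 0.40 (SE 0.14, adjusted p = 0.0298) in the DHX36/FANCJ KO. In the same genotype another YAP target, Ccn1, fell by 0.79 (SE 0.15, adjusted p = 2.68e-04). Yap1 and Ccn2 were named after their values were seen. The angiomotins, junction proteins that hold YAP out of the nucleus, fell in the DHX36/FANCJ KO (Amot by 1.14, Amotl2 by 1.14 and Amotl1 by 1.04), and Amotl2 fell by 1.10 (SE 0.11) in the DHX36 KO. Ankrd1, a target of YAP, fell by 1.48 (SE 0.29) in the DHX36/FANCJ KO, and in the DHX36 KO the YAP target Ccn1 fell by 0.84, the Hippo kinase Stk3 by 0.70 and the coactivator Wwtr1 by 0.66. Nf2, an upstream activator of the Hippo kinases, was at -0.44 in the FANCJ KO (adjusted p = 0.0378), a call lost without any WT library (adjusted p = 0.119, 0.0971 and 0.0856), without any FANCJ KO library (adjusted p = 0.13, 0.116 and 0.0901) and at equal depth (0.0885).

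On the FGF side, 5 of 18 tested ligands and pathway genes rose and 7 fell in the DHX36/FANCJ KO, 5 rose and 1 fell in the DHX36 KO, and 0 rose and 1 fell in the FANCJ KO, with medians of -0.17, 0.08 and -0.05. Over all genes, 33.9%, 24.4% and 2.07% changed in the same genotypes. Fgf4, the ligand of FGFR2, averaged 122 ± 2.09 CPM in the DHX36/FANCJ KO, 82.2 ± 8.83 in the DHX36 KO, 77.0 ± 5.45 in the FANCJ KO and 81.8 ± 5.40 in WT (SD, n = 3 each), and rose by 0.58 (SE 0.09) in the DHX36/FANCJ KO. The Ets factor Etv5, induced by FGF signals, rose by 0.89 (SE 0.09) there and by 0.76 (SE 0.09) in the DHX36 KO, while Spred1, an inhibitor of the pathway, fell by 0.99 (SE 0.09) and 0.56 (SE 0.09). Of the feedback inhibitors, Spry4 rose by 0.46 (SE 0.14) in the DHX36/FANCJ KO, where its libraries overlapped with WT, and by 1.24 (SE 0.14) in the DHX36 KO. Spred2 rose by 0.42 (SE 0.09) and 0.44 (SE 0.09) in the same genotypes. Spry2 fell by 0.62 (SE 0.14) in the DHX36/FANCJ KO. Dusp4 (-0.53, SE 0.13), Dusp6 (-0.43, SE 0.10) and Egr1 (-0.42, SE 0.13) also fell there, while Etv4 did not pass (-0.13, SE 0.10). In the DHX36 KO Etv4 rose by 0.32 (SE 0.10), and Dusp4, Dusp6 and Egr1 did not pass. These genes, and Spry4 and Spred2 in the DHX36/FANCJ KO, were named after their values were seen. In the FANCJ KO the immediate early gene Egr1 fell by 0.85 (SE 0.14).

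Of 22 paralogues of the 8 regulators 12 were tested. In the DHX36/FANCJ KO 2 rose and 5 fell (median -0.22), in the DHX36 KO 3 rose and 4 fell (-0.04), and in the FANCJ KO 1 rose and 0 fell (0.08). Among all tested genes 33.9%, 24.4% and 2.07% changed there. Cdx1 fell as Cdx2 did in the DHX36/FANCJ KO, by 1.07 (SE 0.18). Where Tead4 rose, its paralogues Tead1 and Tead3 fell. Tead1, at 229 CPM in WT, fell by 0.65 (SE 0.08) in the DHX36/FANCJ KO and by 0.79 (SE 0.08) in the DHX36 KO. Tead3 fell by 1.01 (SE 0.13) and 0.44 (SE 0.13) in the same genotypes, and Tead2 passed in neither. These Tead4 paralogues were named after their values were seen. Gata6, a factor of primitive endoderm, was at 1.83 (SE 0.28) in the DHX36/FANCJ KO, 1.124 (SE 0.308) in the DHX36 KO and 1.40 (SE 0.31) in the FANCJ KO, all past the threshold, and Gata1, a blood factor, at 1.92 (SE 0.34) in the DHX36/FANCJ KO. The Gata6 call in the FANCJ KO was lost without WT library 2 or 3 or FANCJ KO library 1 or 3 (adjusted p = 0.0634, 0.0685, 0.0638 and 0.0622) and at equal depth (0.259). Gata1 was at 1.23 (adjusted p = 0.0182) in the DHX36 KO, lost without WT library 1 or 2 or DHX36 KO library 1 (adjusted p = 0.0986, 0.0506 and 0.0568) and at equal depth (0.085). Fgfr4, a sister receptor of Fgfr2, rose by 1.82 (SE 0.26) in the DHX36 KO, where Fgfr2 fell. It averaged 8.1 CPM there and 2.3 CPM in WT. Fgfr1, at 58.4 CPM in WT, fell by 0.39 (SE 0.10) in the DHX36 KO and by 0.69 (SE 0.10) in the DHX36/FANCJ KO. Fgfr1 was named after its values were seen.

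Of the pluripotency and DNA methylation genes that were listed as opposing trophoblast fate, all 14 were tested. In the DHX36/FANCJ KO 9 rose and 0 fell (median 0.34), in the DHX36 KO 6 rose and 1 fell (0.27) and in the FANCJ KO 0 rose and 1 fell (-0.09). For all genes the shares changed were 33.9%, 24.4% and 2.07%. Dnmt3a, a de novo DNA methyltransferase, rose by 1.47 (SE 0.08) in the DHX36/FANCJ KO and by 1.51 (SE 0.09) in the DHX36 KO. Dppa3 rose by 1.01 (SE 0.13) in the DHX36/FANCJ KO and by 1.68 (SE 0.13) in the DHX36 KO, and fell by 1.53 (SE 0.17) in the FANCJ KO. Klf4 and Prdm14, factors of naive pluripotency, rose in the DHX36/FANCJ KO by 0.69 (SE 0.09) and 0.87 (SE 0.18), while in the DHX36 KO Dnmt3b rose by 0.55 (SE 0.08) and Tfcp2l1 fell by 0.67 (SE 0.09). Pou5f1, which encodes OCT4, the factor that CDX2 opposes, averaged 109 ± 11.9 CPM in the DHX36/FANCJ KO, 118 ± 6.12 in the DHX36 KO, 81.0 ± 6.002 in the FANCJ KO and 99.6 ± 7.09 in WT (SD, n = 3 each), and passed in none of the comparisons with WT. It was named after its values were seen.

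Ascl2 lies in an imprinted region of chromosome 7, and genes of that wider region were listed with it. Of 13, 9 were tested, of which 3 rose and 2 fell in the DHX36/FANCJ KO, 1 rose and 3 fell in the DHX36 KO and 2 rose and 0 fell in the FANCJ KO, with medians of 0.22, -0.03 and 0.26. These genotypes changed 33.9%, 24.4% and 2.07% of all tested genes. H19, a maternally expressed RNA, averaged 594 ± 17.9 CPM in the DHX36/FANCJ KO, 35.7 ± 3.27 in the DHX36 KO, 639 ± 50.7 in the FANCJ KO and 151 ± 5.71 in WT (SD, n = 3 each). It rose by 1.98 (SE 0.09) in the DHX36/FANCJ KO and 2.08 (SE 0.09) in the FANCJ KO and fell by 2.08 (SE 0.09) in the DHX36 KO, while Ascl2 passed against WT in the DHX36/FANCJ KO alone. Igf2, the paternally expressed growth factor gene, fell by 0.62 (SE 0.08) in the DHX36/FANCJ KO and by 0.51 (SE 0.08) in the DHX36 KO. It was at 0.37 in the FANCJ KO (adjusted p = 0.0189), a call lost without WT library 1 or 3 or FANCJ KO library 1 or 2 (adjusted p = 0.0832, 0.0668, 0.0875 and 0.0602). Cd81, a tetraspanin gene, fell by 0.51 (SE 0.08) in the DHX36/FANCJ KO and 0.64 (SE 0.08) in the DHX36 KO, and Cdkn1c rose by 1.05 (SE 0.21) in the DHX36/FANCJ KO. Kcnq1ot1, also listed, was at 0.22 (SE 0.15) in the DHX36/FANCJ KO, -0.03 (SE 0.15) in the DHX36 KO and 0.09 (SE 0.15) in the FANCJ KO. It passed in none of these comparisons with WT and was named after its values were seen.

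**Figure D4:**
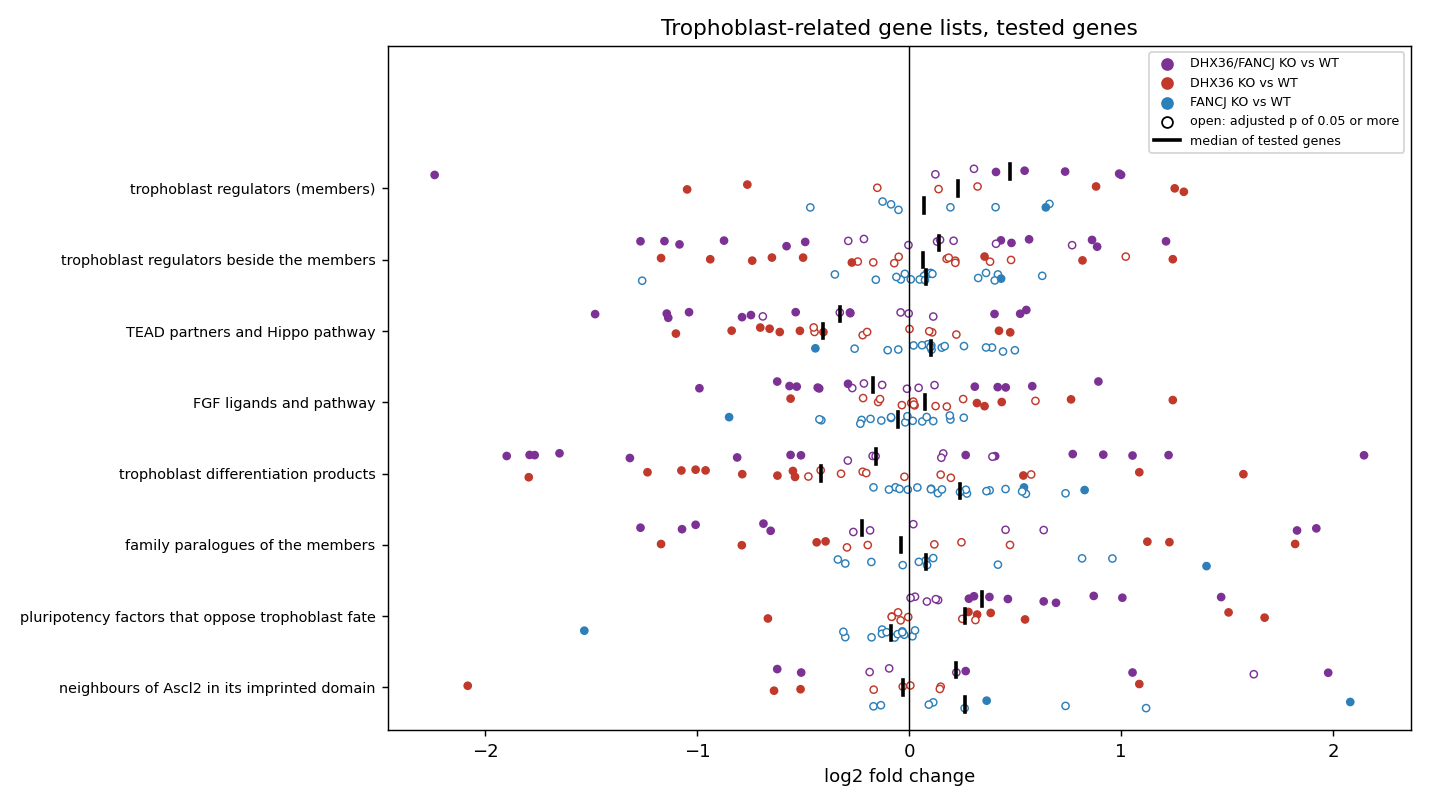
Log2 fold change against WT of every tested gene of the 8 regulators and the 7 related lists, by knockout genotype. Filled points passed an adjusted p of 0.05 (edgeR) and black bars are medians, which for the regulators were 0.48, 0.23 and 0.07 in the DHX36/FANCJ, DHX36 and FANCJ KO.

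Markers of other cell types differed between the genotypes as well. The summed level of 9 trophoblast markers was 257 to 267 CPM in the DHX36/FANCJ KO, 351 to 397 in the DHX36 KO, 755 to 812 in the FANCJ KO and 622 to 804 in WT, most of it from the keratins: without Krt7 and Krt8 it was 89.7 to 92.2, 77.6 to 79.9, 64.4 to 77.2 and 67.2 to 73.1 in the same genotypes. Mesoderm markers, which include Hand1, Bmp4 and Eomes, summed to 212 to 242 CPM in the DHX36/FANCJ KO, 306 to 334 in the DHX36 KO, 151 to 173 in the FANCJ KO and 137 to 154 in WT. Of these 11 markers Mesp1 was at 0 in the FANCJ KO and in WT. With Hand1 left out they summed to 160 to 183, 232 to 236, 104 to 113 and 105 to 115 CPM in the same order of genotypes, most of it from Bmp4 and Eomes. The other 8 summed to 11.2 to 13.3 CPM in the DHX36/FANCJ KO, 27.1 to 34.6 in the DHX36 KO, 8.51 to 13.8 in the FANCJ KO and 17 to 20.4 in WT, so without these genes the DHX36/FANCJ KO lay below WT. Among them T, a factor of the primitive streak, was at -1.25 (SE 0.20) in the DHX36/FANCJ KO, 1.06 (SE 0.17) in the DHX36 KO and -2.28 (SE 0.25) in the FANCJ KO against WT, all past the threshold (adjusted p = 3.96e-05, 1.04e-04 and 9.08e-06, edgeR), and it was named after its values were seen. Primitive endoderm markers (12) summed to 438 to 505, 494 to 516, 703 to 732 and 484 to 606 CPM, fibroblast markers (10) to 274 to 288, 511 to 551, 1150 to 1200 and 813 to 1000 CPM, and neuroectoderm markers (8) to 141 to 156, 193 to 198, 181 to 192 and 174 to 182 CPM, all in that order of genotypes. Of the neuroectoderm markers Olig2 was at 0 in both genotypes without DHX36. Tubb3 gave most of their sum (means of 115, 154, 124 and 121 CPM). Of the 6 tested, 0 rose and 4 fell in the DHX36/FANCJ KO and 1 rose and 4 fell in the DHX36 KO. Sparc gave much of the primitive endoderm sum (330, 358, 369 and 340 CPM). Of 11 tested there, 3 rose and 3 fell in the DHX36/FANCJ KO, 2 rose and 3 fell in the DHX36 KO, and 7 rose and 0 fell in the FANCJ KO. Acta2, Tagln and Fn1 gave most of the fibroblast sum. Acta2 had means of 45.8, 165, 524 and 363 CPM, and Tagln 61.5, 124, 400 and 308 CPM. Fn1 had 142, 160, 175 and 157 CPM. Of 7 tested there, 1 rose and 5 fell in the DHX36/FANCJ KO and 1 rose and 3 fell in the DHX36 KO. In the FANCJ KO 2 rose and 0 fell. The marker that rose in both genotypes without DHX36 was Thy1, by 1.61 (SE 0.24) and 1.91 (SE 0.24). Tubb3, Sparc and these fibroblast markers were named after their values were seen. The part of such cells in the levels of the 8 regulators was not tested.

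Some tested genes followed a regulator closely across the 12 libraries, by the root mean square difference of their log2 CPM, each centred on its own mean. Nearest to Tead4 were Uhrf2 (0.0854), Hipk2 (0.101) and Eomes (0.119), among 9204 genes of at least 5 CPM, and nearest to Tfap2c were Cdc5l (0.0943), Sgo2a (0.101) and Ncor1 (0.111). Ascl2 was followed by Camk1d (0.152), the pluripotency factor gene Prdm14 (0.181) and Mtmr12 (0.188), and Fgfr2 by Nup62cl (0.156), Lncenc1 (0.165) and Tmem45a (0.186). Closest to Gata2 were Crmp1 (0.166), Sun2 (0.186) and Tm7sf3 (0.189), and to Hand1 Atn1 (0.166), Mcam (0.203) and H2afj (0.208). Gata3 and Cdx2, with the fewest counts, had no gene as close: Nkx2-9 (0.273), Strn3 (0.301) and Klhl13 (0.303) for Gata3, and Col3a1 (0.383), Hspa1b (0.392) and Nkd1 (0.414) for Cdx2. These distances are descriptions, and the 12 libraries share the differences between genotypes.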

How the data were processed

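The authors deposited raw counts, whole numbers for 32285 genes and 92 spike-in transcripts, which were left out. BWA is the tool in the submitters' processing notes, and GRCm38 and hg38 are the builds listed there, with no version or role. The sources used here do not say whether reads or molecules were counted, nor how strand was handled. Depth was 4284785 to 14721931 counts per library, and no pair of libraries within a genotype agreed to within sampling noise (3.87 to 11.3 for chi-square over its degrees of freedom). Intervals and floors cover counting error only. Tests used R 4.3.3 and edgeR 4.0.16 (quasi-likelihood F test, trimmed-mean normalisation, default expression filter), with all 12 libraries in 1 model of genotype, two-sided, with Benjamini-Hochberg adjustment over 12765 genes and a threshold of 0.05. Each SE was the absolute log2 fold change over the root of its F. The procedure was tested on simulated data. Alternatives were DESeq2 1.42.0, its size factors, no filter, a replicate block, only the genotypes compared, equal depth (a single random draw) and leaving out each library. The members and lists were chosen with earlier results of these data known. Named were the 8 regulators, the targeted genes, the up to 4 changed genes of each list with the largest fold changes per comparison with WT, and the 3 genes nearest to each regulator in profile. The log2 CPM for that used a prior count of 2. Coordinates are from GENCODE M21 on GRCm38, and promoters from RefSeq.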

Additional observations from a re-analysis of the deposited data

Results flagged for a closer look

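For 4 of the 8 regulators the effect of FANCJ loss differed between cells without and with DHX36, by the interaction test of edgeR's quasi-likelihood fit, which passed for 8.79% of all genes tested. The difference of log2 fold changes was -2.09 for Cdx2 (adjusted p = 0.00304), -1.35 for Hand1 (1.72e-04), 0.91 for Ascl2 (0.00378) and 0.68 for Tfap2c (0.00494). With FANCJ lost, Hand1 was lower in cells without DHX36 and higher in cells with it, the second a call lost without any 1 of 4 of the 6 libraries compared (adjusted p = 0.116 to 0.138). The others changed past the threshold only where DHX36 was also absent. At equal depth, in a single random draw, the calls for Cdx2 (-1.14, adjusted p = 0.329) and Tfap2c (0.61, adjusted p = 0.0871) were lost.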

How the results depend on the processing

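The regulators gave 33 values past the threshold and 23 that missed it. Over the alternatives the passing values never changed sign: 403 kept the call and 13 lost it. Of those that missed, 4 passed under an alternative and 7 changed sign, each with a library left out. Over the libraries left out, log2 fold changes ran from -0.198 (without WT library 2) to 0.109 (without WT library 1) for Ascl2 and from -0.2 (without WT library 3) to 0.094 (without WT library 2) for Gata2 in the FANCJ KO against WT, where Gata2 was also 0.054 without FANCJ KO library 1. They ran from -0.023 (without WT library 2) to 0.285 for Ascl2 in the DHX36 KO against WT, and from -0.247 to 0.024 (without FANCJ KO library 2) for Hand1 in the DHX36/FANCJ KO against the FANCJ KO. For Tfap2c in the DHX36 KO against the FANCJ KO they ran from -0.124 to 0.051 (without FANCJ KO library 3), with 0.017 without DHX36 KO library 2. The cause was not tested.

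The 264 genes changed in the FANCJ KO against WT became 418 without a filter, 159 with only the genotypes compared and 110 (without FANCJ KO library 1) to 198 with a library left out. Its 1 changed regulator became 0 with only the genotypes compared and 0 to 1 with a library left out. At equal depth, where fewer counts enter by construction, 1998 genes changed in the DHX36 KO and 105 in the FANCJ KO against WT. There 1464 changed in the DHX36/FANCJ KO against the DHX36 KO, 3130 against the FANCJ KO, 2489 in the DHX36 KO against the FANCJ KO and 626 for the interaction, which passed for 2 regulators. Same-numbered libraries of different genotypes showed no shared deviation (correlations of -0.056 to 0.046). That cannot tell whether they were cultured or prepared together, and no label says what the numbers mark. With a replicate block 4264, 3004 and 233 genes changed in the DHX36/FANCJ KO, DHX36 KO and FANCJ KO against WT, and no regulator gained or lost a call. Depth limits Cdx2 and Gata3 most, at 306 and 823 counts over all libraries.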
